A study of Mus musculus with 6 samples.

Results

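Collagens are the main structural proteins of the extracellular matrix, and with a handful of fibroblast and mesothelial marker genes they help to judge whether a macrophage culture holds RNA of matrix-producing cells. The genes described here are every measured gene whose symbol is Col, a number, the letter a and a number (44 collagen chains), together with Dcn, Bgn, Lum, Pdgfra and Pdgfrb, which mark fibroblasts and other stromal cells, and Msln, Upk3b, Krt18, Krt19 and Wt1, which mark mesothelium, the cell layer that lines the peritoneal cavity. They were chosen by symbol and amount to 54 of 25206 features on the array. The cells were peritoneal macrophages of 3 Tet2-/- mice and of 3 wildtype littermates (WT), all on the C57BL/6J background. They were collected on day 4 after an injection of 1 mL of 4% Brewer's thioglycollate, a broth that draws macrophages into the cavity, and plated in RPMI with antibiotics and 10% FBS. Every culture of both groups then received 10 ng/mL LPS, a bacterial ligand of toll-like receptor 4, with 2 ng/mL IFNg for 10 h, so no untreated culture entered the comparison. The labels describe plating and name no sort, and they give neither the age or sex of the mice nor the deleted part of Tet2. Each culture was measured on 1 Affymetrix array, and each gene has 1 value per array on the log2 scale. The labels number the cultures as biological replicates, 3 in each genotype, so the errors hold the spread between cultures and whatever lies between mice.

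Collagen chains wind in threes into a triple helix, which cells secrete and cleave before the molecules assemble. Fibrillar collagens, above all type I (the chains Col1a1 and Col1a2) and type III (Col3a1), form the cable-like fibres of connective tissue. Type IV builds the sheet of basement membranes, type VI builds beaded filaments, and the remaining types coat fibres, span membranes or serve cartilage and skin. In the peritoneum collagens are made mainly by fibroblasts and mesothelial cells, whereas macrophages are known for degrading and taking up collagen rather than for laying it down.

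The arrays were those of macrophages by their markers: all 11 measured genes of a macrophage list lay above the 95th percentile of odorant and vomeronasal receptor genes in every array, among them Adgre1, a surface receptor that defines mouse macrophages, at 10.31, 10.17 and 10.13 in the Tet2-/- arrays and 10.05, 10.07 and 10.04 in the WT arrays. Tet2 itself did not read lower in the arrays labelled Tet2-/-, with log2 levels of 5.55, 5.25 and 5.75 against 5.40, 5.07 and 5.10 in the WT group (log2 change 0.32 ± 0.16, limma adjusted p = 0.365); where the probes lie relative to the deletion is not known here, so each direction rests on the labels. Array medians lay between 3.47 and 3.60 in the Tet2-/- group and between 3.54 and 3.66 in the WT group. One array, that of Tet2-/- replicate 2, stood apart in collagen and stromal genes, so values without it are given beside the differences it moves. Where it is the highest array of the group with the higher mean, leaving it out lowers the difference by construction. A fall of that kind describes the array and is no test.

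Type I and type III collagen transcripts varied over the 6 cultures more than those of any other collagen, and single cultures of both genotypes held the high values. Col1a1, the major chain of type I collagen, had log2 levels of 5.58, 7.37 and 5.26 in Tet2-/- replicates 1, 2 and 3, against 5.40, 5.96 and 5.09 in WT replicates 1, 2 and 3. Its partner chain Col1a2 had 5.34, 6.62 and 4.66 in the Tet2-/- cultures, against 4.28, 5.14 and 4.78 in the WT cultures. Col3a1, the type III chain that joins type I in elastic tissues, had 4.46, 5.59 and 4.05 in the Tet2-/- cultures, against 4.20, 4.77 and 3.90 in the WT cultures. In each of the 3 genes Tet2-/- replicate 2 was the highest of all 6 arrays, WT replicate 2 was the highest of the WT arrays, and the groups overlapped. Tet2-/- replicate 2 exceeded the next array by 2.65-fold for Col1a1, 2.43-fold for Col1a2 and 1.76-fold for Col3a1, while the whole span from the lowest to the highest array was 4.87-fold, 5.07-fold and 3.22-fold. Col1a1 and Col3a1 also put the 6 arrays in the same order: Tet2-/- replicate 2, WT replicate 2, Tet2-/- replicate 1, WT replicate 1, Tet2-/- replicate 3 and WT replicate 3. In bulk RNA of this kind, more cells of a type and more RNA per cell cannot be told apart.

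**Figure D1:**
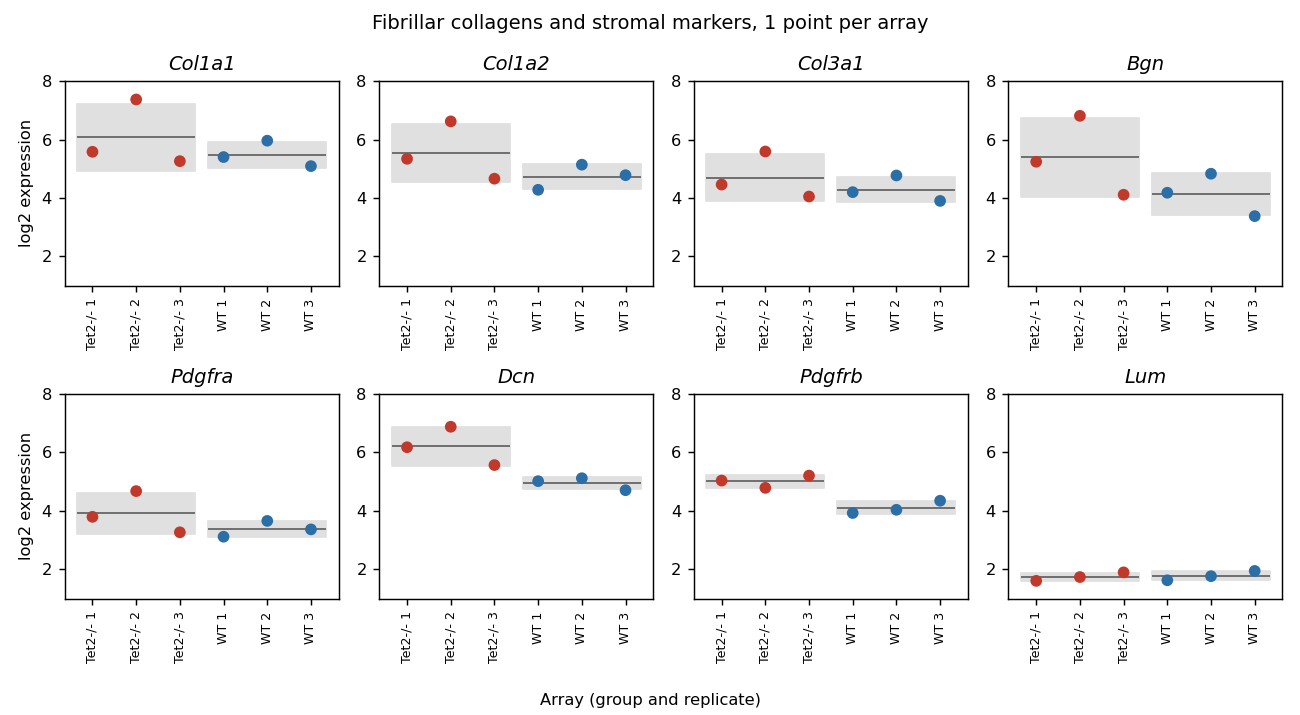
Log2 expression of 3 fibrillar collagens, the proteoglycans Bgn, Dcn and Lum and the receptors Pdgfra and Pdgfrb, with 1 point per array (red, Tet2-/-; blue, WT), the group mean as a line and 1 SD (n = 3) as a grey band. Tet2-/- replicate 2 is the highest array for Col1a1 (7.37), Col1a2, Col3a1, Bgn, Pdgfra and Dcn but the lowest of its group for Pdgfrb (4.79), and Lum stays between 1.61 and 1.95.

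The differences between the groups in these chains shrank without that 1 culture. The fall was fixed in advance, as that culture was the highest array of the group with the higher mean. Col1a1 averaged 6.07 ± 1.14 in Tet2-/- cultures and 5.48 ± 0.45 in WT cultures (SD, n = 3 each), a log2 change of 0.59 ± 0.47 (SE, limma adjusted p = 0.604), and -0.06 ± 0.25 without Tet2-/- replicate 2. Col1a2 averaged 5.54 ± 0.99 in Tet2-/- cultures and 4.73 ± 0.43 in WT cultures, with a log2 change of 0.81 ± 0.42 (limma adjusted p = 0.398) that was 0.27 ± 0.28 without the same array. For Col3a1 the log2 change was 0.41 ± 0.36 (limma adjusted p = 0.638), and -0.03 ± 0.25 without it. With each array left out in turn, the log2 change ran from -0.06 to 0.99 for Col1a1. The same fits gave 0.27 to 1.25 for Col1a2 and -0.03 to 0.74 for Col3a1. None of the 3 passed the threshold of 0.05 in the fit with all arrays or in the 12 alternative fits, where their adjusted p ran from 0.194 to 0.964. The other fibrillar chains moved far less: over the 8 that remain, the span between the lowest and highest array was 0.30 to 0.66 on the log2 scale. Among them were Col5a1, which regulates fibre width as part of type V collagen, at 4.34, 4.84 and 4.43 in Tet2-/- cultures against 4.43, 4.50 and 4.28 in WT cultures, and Col5a2, the gene next to Col3a1 on chromosome 1, at 3.67, 4.22 and 4.00 against 3.68, 3.81 and 3.64. Both were still highest in Tet2-/- replicate 2.

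Of the 5 stromal markers, Bgn and Pdgfra varied with the type I chains, Dcn did so in part, Pdgfrb differed by genotype and Lum was nearly flat. Bgn, which encodes biglycan, a small leucine-rich proteoglycan bound to collagen fibres, was at 5.24, 6.81 and 4.11 in Tet2-/- cultures, against 4.18, 4.83 and 3.38 in WT cultures. Pdgfra, the platelet-derived growth factor receptor found on most fibroblasts, was at 3.80, 4.68 and 3.27 in Tet2-/- cultures, against 3.12, 3.66 and 3.37 in WT cultures. Tet2-/- replicate 2 was the highest array for both, replicate 2 was also the highest of the WT arrays, and the groups overlapped. Pdgfra put the 6 arrays in exactly the order that Col1a2 did. The log2 change of Bgn was 1.26 ± 0.59 (limma adjusted p = 0.344) with all arrays and 0.54 ± 0.43 without Tet2-/- replicate 2, and that of Pdgfra was 0.54 ± 0.31 (limma adjusted p = 0.445) and 0.16 ± 0.21 without it. The size of the Pdgfra change is uncertain, as it rests partly on those low values.

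The promoters of Col1a2, Col3a1, Bgn and Pdgfra are shown because these genes were all highest in the same array. They are the 150 bases before the annotated start, 5′ to 3′ on the gene's strand, from RefSeq's promoter table (GRCm38.p6), in which 39 of the 54 genes were found. Col1a1 and Dcn, which were also highest in Tet2-/- replicate 2, were not among those found. Capitals mark matches to 3 motifs, which were sought as written and as the reverse complement. One is the CCAAT box, spelled by its name. Another is the TATA motif, sought with the letters TATAA. The third is the GC box, sought with the letters GGGCGG.
Col1a2, chr6:4505468-4505617, plus strand: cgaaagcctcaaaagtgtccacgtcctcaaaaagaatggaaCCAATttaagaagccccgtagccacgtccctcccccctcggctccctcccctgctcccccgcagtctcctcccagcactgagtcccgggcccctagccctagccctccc
Col3a1, chr1:45311388-45311537, plus strand: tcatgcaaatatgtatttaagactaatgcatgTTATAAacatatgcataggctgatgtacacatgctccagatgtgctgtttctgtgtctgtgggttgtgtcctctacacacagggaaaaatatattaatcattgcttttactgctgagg
Bgn, chrX:73483451-73483600, plus strand: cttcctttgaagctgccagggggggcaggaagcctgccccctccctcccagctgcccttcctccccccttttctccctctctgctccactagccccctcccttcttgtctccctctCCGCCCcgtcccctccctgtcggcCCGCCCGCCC
Pdgfra, chr5:75152101-75152250, plus strand: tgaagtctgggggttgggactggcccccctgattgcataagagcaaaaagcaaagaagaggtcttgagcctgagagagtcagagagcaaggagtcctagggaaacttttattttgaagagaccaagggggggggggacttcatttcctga
Col1a2 held 1 CCAAT box, which begins 109 bases before the start. Col3a1 held the TATA motif on both strands in overlapping letters, Bgn held 3 copies of the GC box on the other strand, of which 2 overlap, and Pdgfra held none of the 3 motifs. Over all 32851 windows of the same length in the table, the CCAAT box occurred in 24.5%, the TATA motif in 14.2% and the GC box in 28.6%, on either strand. The share of G and C ran from 37.3% in Col3a1 to 70.0% in Bgn, against a median of 54.0% over all windows. A match describes letters only.

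Dcn and Pdgfrb did not follow the collagens in the same way. Dcn, which encodes decorin, the proteoglycan that binds type I fibres, was at 6.18, 6.88 and 5.57 in Tet2-/- cultures, against 5.02, 5.12 and 4.71 in WT cultures. Its groups did not overlap, although Tet2-/- replicate 2 was again the highest array. Within each genotype Dcn put the arrays in the order that Col1a1 did. The log2 change was 1.26 ± 0.28, or 2.40-fold, with a limma adjusted p = 0.0715 that missed the threshold, and 0.93 ± 0.21 without Tet2-/- replicate 2 (adjusted p = 0.0905). Over 12 alternative fits the adjusted p of Dcn ran from 0.0341 to 0.222 and was under the threshold in 4. Lum, the gene next to Dcn on chromosome 10, encodes lumican, another collagen-binding proteoglycan, and was at 1.61, 1.74 and 1.90 in Tet2-/- cultures, against 1.63, 1.77 and 1.95 in WT cultures. Its levels spanned 0.34 over all 6 arrays, the least of the stromal markers, and its percentile among all features of an array was at most 15.5.

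Pdgfrb alone among the 54 genes passed the test between genotypes. It encodes the receptor for platelet-derived growth factor B chains, known from pericytes, smooth muscle and fibroblasts. Pdgfrb was at 5.04, 4.79 and 5.21 in Tet2-/- cultures, against 3.93, 4.04 and 4.35 in WT cultures. All 3 Tet2-/- arrays were above all 3 WT arrays, and the culture with the most type I collagen RNA, Tet2-/- replicate 2, had the lowest Pdgfrb of its group. The gene rose by 0.91 ± 0.16 on the log2 scale, or 1.88-fold (limma adjusted p = 0.0361). Without Tet2-/- replicate 2 the log2 change was 1.02 ± 0.16 and the adjusted p 0.04997, while leaving out any other array ended the call, with adjusted p values up to 0.146 and log2 changes between 0.81 and 1.03. Among markers of smooth muscle and pericytes 0 of 12 passed, where 0.952% of all features did, so this count is close to the background. The mean log2 level of the 12 was 3.39, 3.65 and 3.52 in Tet2-/- arrays against 3.38, 3.65 and 3.51 in WT arrays. Among markers of resident peritoneal macrophages 4 of 11 rose, where 0.647% of all features did. The list was chosen with earlier results of these data known, so this share is no independent support. Each of the 4 lost its call in some fits that left out 1 array (limma adjusted p up to 0.108). The summed linear level of the 11 markers, which weighs bright features most, was 1370 to 2330 in Tet2-/- arrays against 556 to 786 in WT arrays. The part of these markers in the result for Pdgfrb was not tested.

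None of the 5 mesothelial markers passed the test, where 0.952% of all features did, so this count is close to the background. Their levels overlapped between the groups, where those of 22.0% of all features did not. Msln, the surface protein mesothelin, was at 3.58, 3.37 and 3.03 in Tet2-/- cultures, against 3.15, 3.46 and 3.06 in WT cultures. Upk3b, a uroplakin made by mesothelium, was at 4.02, 4.43 and 3.96 in Tet2-/- cultures, against 3.86, 4.36 and 4.02 in WT cultures. Wt1, a transcription factor of mesothelial cells, was at 4.14, 4.38 and 4.06 in Tet2-/- cultures, against 4.33, 4.66 and 4.23 in WT cultures. The highest array was a different one for each of these 3 genes, and the groups overlapped in each. The keratins Krt18 and Krt19, filament proteins of simple epithelia, ranged from 3.17 to 3.77 and from 2.97 to 3.40 over the 6 arrays. Spans over the arrays were 0.42 to 0.60 for the 5 markers, against a median span of 0.52 over all features, and their log2 changes lay between -0.21 and 0.11 with standard errors of 0.14 to 0.17. The summed linear level of the 5 was 60.7 to 74.3 in Tet2-/- arrays and 61.2 to 78.6 in WT arrays. That of the 5 stromal markers was 160, 287 and 115 in Tet2-/- arrays and 77.5, 95.9 and 71.1 in WT arrays. Such a sum weighs bright features most. Among the stromal markers only Dcn and Pdgfrb had groups that did not overlap, whereas those of Bgn, Pdgfra and Lum overlapped.

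**Figure D2:**
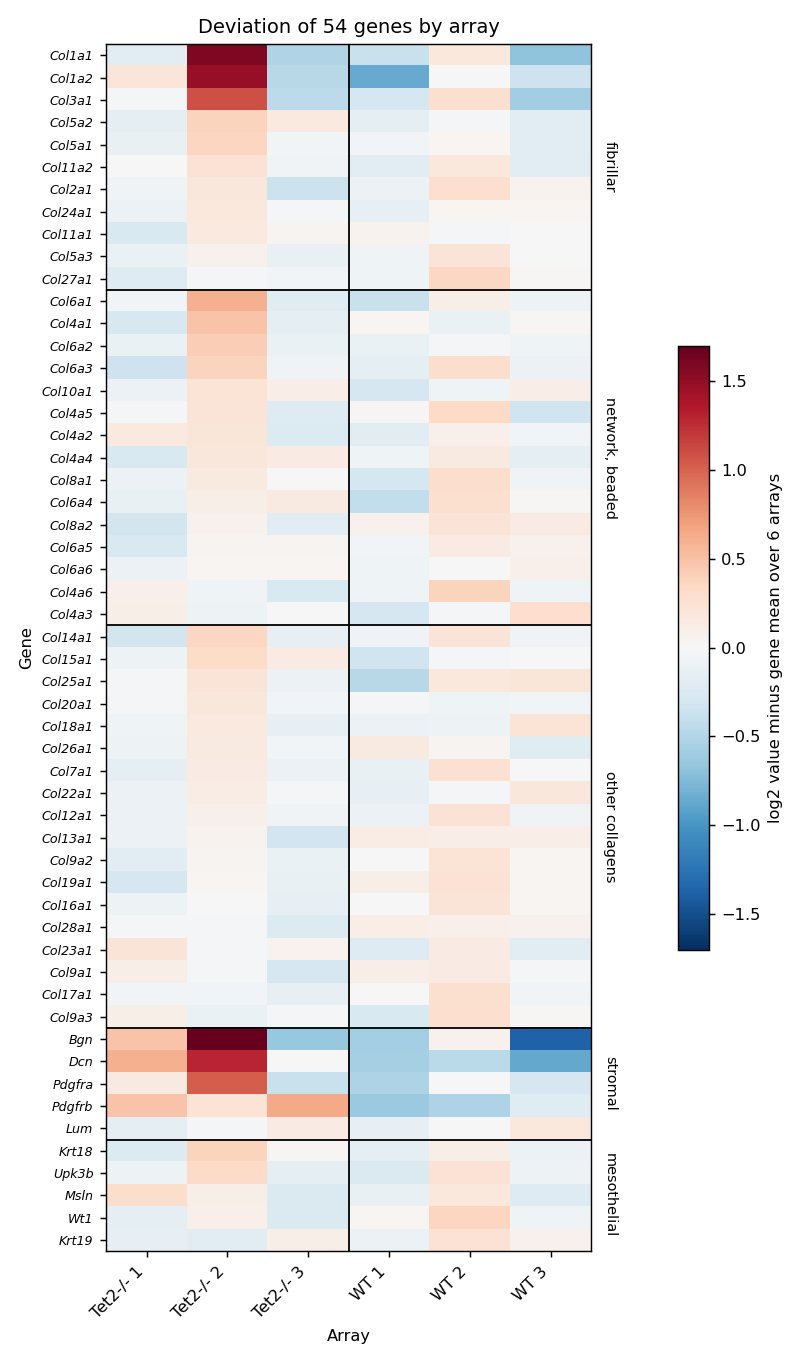
Deviation of each of the 54 genes (rows, grouped by kind) from its own mean over the 6 arrays (columns, Tet2-/- left of WT), in log2 units from blue (lower) to red (higher). Among the darkest red cells are those of Col1a1, Col1a2, Bgn, Dcn, Col3a1 and Pdgfra in Tet2-/- replicate 2, and the mesothelial rows stay pale in every array.

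Where a value sits on its array gives a rough guide to whether a gene is measured at all. As a mark, the 95th percentile of 1350 odorant and vomeronasal receptor genes, which macrophages are not known to use, was taken in each array and lay at 3.40 to 3.51 in the Tet2-/- group and at 3.46 to 3.58 in the WT group. Features differ in how they respond, so a value past this mark was not read as proof of expression, and none was ranked against another gene as an amount. Between 35 and 38 of the 54 genes were above it in the Tet2-/- arrays and between 34 and 37 in the WT arrays. Lum, Krt19 and 13 collagens were above it in no array, among them Col10a1, of growth-plate cartilage, and Col12a1 and Col14a1, which coat fibres. Krt18 and Msln passed it in 1 array each, Krt18 in Tet2-/- replicate 2 and Msln in Tet2-/- replicate 1, whereas Bgn passed it in 5 arrays and Pdgfra in 3.

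Beyond the fibrillar group, the main chains of types IV and VI were also highest in Tet2-/- replicate 2, by smaller margins. Col4a1, a main chain of type IV collagen, was at 4.13, 4.89 and 4.25 in Tet2-/- cultures, against 4.44, 4.29 and 4.42 in WT cultures, and Col4a2, its neighbour on chromosome 8, was at 4.49, 4.54 and 4.10 against 4.14, 4.42 and 4.28. Col6a1 was at 4.47, 5.12 and 4.31 in Tet2-/- cultures, against 4.14, 4.62 and 4.43 in WT cultures, and its partner chain Col6a2, next to it on chromosome 10, was at 4.52, 5.06 and 4.53 against 4.53, 4.61 and 4.57. Col6a3, the third main type VI chain, was at 3.57, 4.30 and 3.86 against 3.77, 4.22 and 3.82. In all 5 genes the highest array was Tet2-/- replicate 2, and the groups overlapped. Their log2 changes lay between -0.03 and 0.24 (the lowest, Col6a3, was 0.04 with arrays centred on their medians and 0.02 with cyclic loess), and that of Col4a1, 0.04 ± 0.19, was -0.20 ± 0.13 without Tet2-/- replicate 2. The other 10 chains of this group and the 18 chains of the fibre-coating, membrane-spanning and further types had spans of 0.19 to 0.69.

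Over all 54 genes, 7 had a span of at least 1 on the log2 scale (Bgn, Col1a2, Col1a1, Dcn, Col3a1, Pdgfra and Pdgfrb), where 7.42% of all features did. Tet2-/- replicate 2 was the highest array for 24 of the 54, where it was the highest for 13.8% of all features, and WT replicate 2 for 19, where it was the highest for 21.4%. The other arrays were highest for few of the 54: Tet2-/- replicate 1 for 2 (17.4% of all features), Tet2-/- replicate 3 for 1 (13.2%), WT replicate 1 for 3 (15.7%) and WT replicate 3 for 5 (18.6%). Tet2-/- replicate 2 exceeded every other array by at least 0.8 for 5 of the 54 genes, where it did so for 0.103% of all features. The cut of 0.8 was not among the planned settings. Col3a1 lay just above it at 0.82 and Dcn below it at 0.71, so the count depends on the cut. Within its own genotype, replicate 2 was highest for 42 of the 54 among the Tet2-/- arrays (37.1% of all features), for 38 among the WT arrays (35.3%) and in both for 30 (16.0%). With the 7 wide-ranging genes set aside, 38.3% of the other 47 were highest in Tet2-/- replicate 2 and 40.4% in WT replicate 2. The 1350 receptor genes did not share this, with 13.7% highest in Tet2-/- replicate 2 and 18.7% in WT replicate 2. Among the 15910 features whose mean level lay in the range spanned by the 47 genes, 16.6% were highest in Tet2-/- replicate 2 and 26.4% in WT replicate 2. The shift was small for most genes: the median deviation of the 47 from their own means was 0.14 in Tet2-/- replicate 2 and 0.15 in WT replicate 2, and between -0.10 and 0.00 in the other 4 arrays. The shift of WT replicate 2, the array with the highest median level, depended on the scaling: the median deviation of the 47 there was 0.05 with arrays centred on their medians and 0.09 with cyclic loess, against 0.10 and 0.12 in Tet2-/- replicate 2. Under these scalings Tet2-/- replicate 2 was the highest array for 22 and 23 of the 54 genes, where it was for 10.1% and 14.7% of all features, and WT replicate 2 for 14 and 15, where it was for 11.2% and 18.2%. These shares describe the arrays and carry no test.

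**Figure D3:**
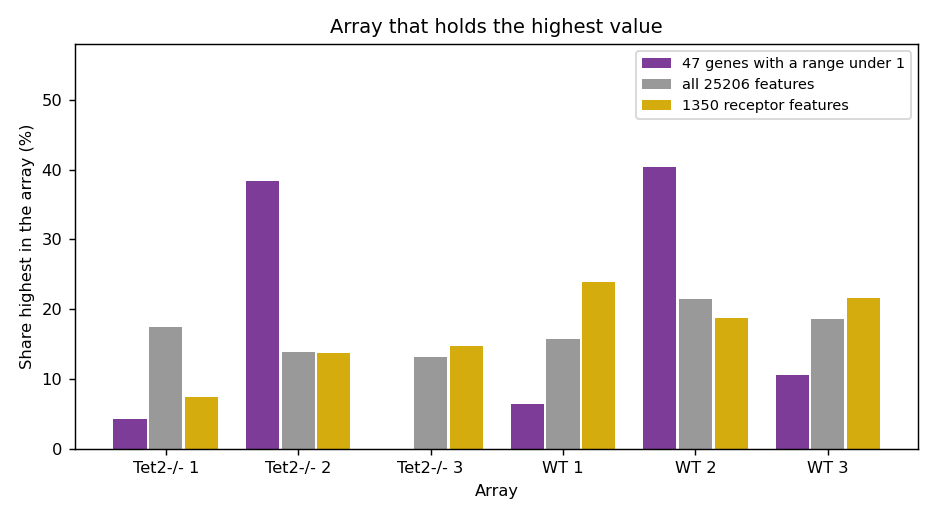
Share of genes, in percent, whose highest value fell in each array (x axis, Tet2-/- left of WT), for the 47 collagen and marker genes with a span under 1 (purple), all 25206 features (grey) and 1350 receptor features (yellow). The purple bars reach 38.3% in Tet2-/- replicate 2 and 40.4% in WT replicate 2, and no purple bar stands at Tet2-/- replicate 3, where the share is 0.

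Between the genotypes, 1 of the 54 genes rose (Pdgfrb), 0 fell and 53 did not pass an adjusted p of 0.05 in limma. Over all features 0.952% passed, 0.647% higher and 0.305% lower, so a single gene, 1.85% of the 54, is close to the background. At an unadjusted p under 0.05 there were 2, Dcn and Pdgfrb, both higher, where 16.0% of all features passed (7.63% higher, 8.37% lower); the same 2 passed an adjusted p of 0.25, where 12.0% did (5.95% higher, 6.05% lower). A log2 change of at least 0.5 either way was seen for 6 of the 54, where 5.98% of all features had one. The log2 changes had a median of 0.01, beside -0.04 over all features, and 28 were positive and 26 negative, where 42.1% of all features were positive. Groups did not overlap for 5 of the 54 genes, where 22.0% of all features did not: Dcn and Pdgfrb were higher in Tet2-/- cultures, where 9.74% of all features were, and Col13a1, Col16a1 and Col28a1 were lower, where 12.2% were. Those 3 differences were small, at -0.24 ± 0.13, -0.16 ± 0.12 and -0.18 ± 0.12, and did not pass. Col28a1 was below the receptor mark in all 6 arrays, so its difference may be background. By kind, the median log2 change was 0.13 for the 11 fibrillar collagens, 0.04 for the 15 network and beaded-filament collagens, -0.06 for the 18 others, 0.91 for the 5 stromal markers and 0.06 for the 5 mesothelial markers. Without Tet2-/- replicate 2 these medians were -0.04, -0.05, -0.14, 0.54 and -0.09 in the same order. The fibrillar, network and mesothelial medians thus turned negative without it, and the median of all 54 was -0.06, beside -0.05 over all features. Medians without each of the other arrays were not taken, so a turn of sign is not shown to be particular to this array. With 3 arrays a group, a two-sided permutation test of 1 gene cannot give a p below 0.1, and none was used.

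**Figure D4:**
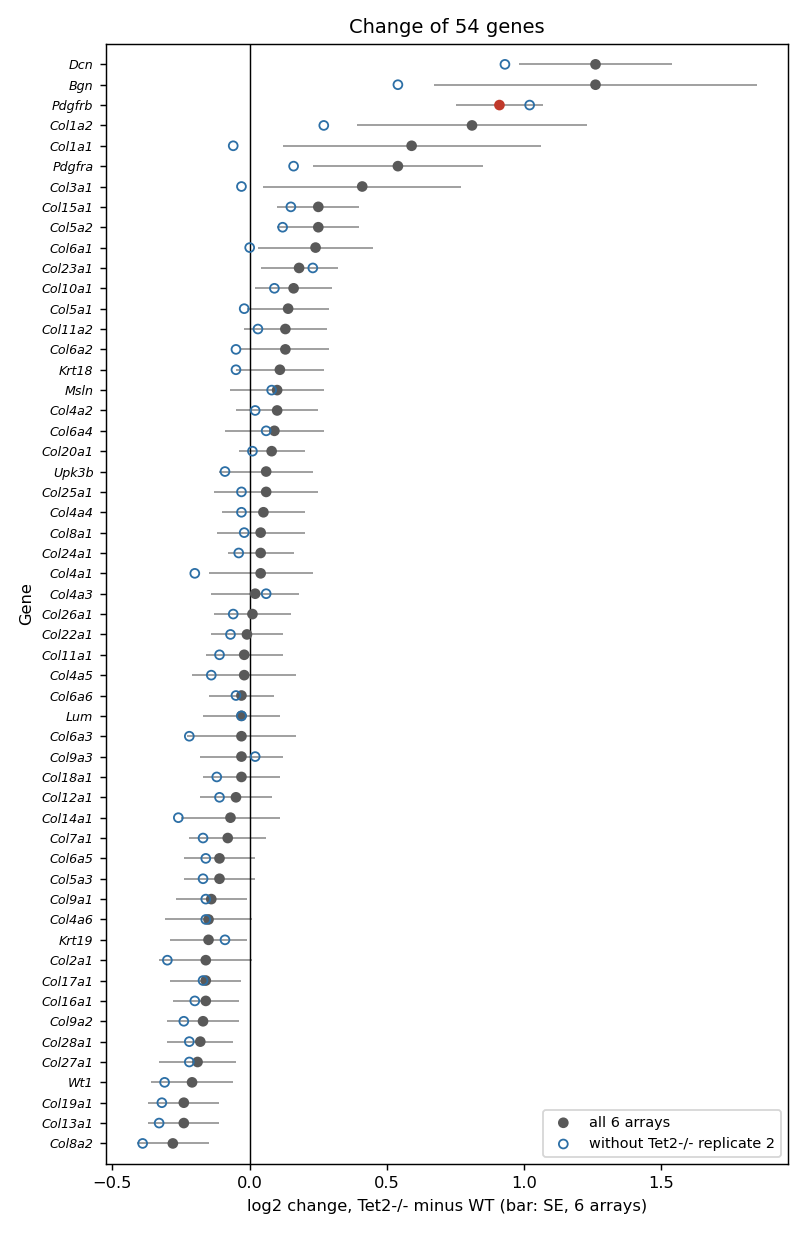
Log2 change, Tet2-/- minus WT, of the 54 genes in order of size, from the limma fit on all 6 arrays (filled points, with bars of 1 SE; red marks an adjusted p under 0.05) and without Tet2-/- replicate 2 (open blue circles). Pdgfrb is the only red point, at 0.91, and the open circles of Bgn, Col1a1, Col1a2, Col3a1 and Pdgfra lie well to the left of the filled ones.

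The genes that process and bind collagen were followed in lists chosen by function. Of 25 measured collagen-modifying enzymes 1 passed as higher, 0 fell and 24 did not pass, where 0.647% of all features rose and 0.305% fell. The 1 was Loxl2, a lysyl oxidase that cross-links collagen and elastin, at 2.91, 3.56 and 2.78 in Tet2-/- cultures against 1.26, 1.98 and 1.57 in WT cultures. The groups did not overlap (limma adjusted p = 0.0266), but only Tet2-/- replicate 2 was above the receptor mark, so the WT level is no more than a bound and no size of change is given. Leaving out any array except WT replicate 2 ended the call (adjusted p up to 0.112). The related Lox (log2 change 0.57 ± 0.14, adjusted p = 0.0994) and Bmp1, a protease that trims procollagen (0.67 ± 0.17, adjusted p = 0.0999), were short of the threshold. P4ha2, a prolyl 4-hydroxylase subunit, and Loxl1, another lysyl oxidase, had log2 changes of 0.39 ± 0.20 and 0.14 ± 0.24, and of 0.28 ± 0.22 and -0.11 ± 0.21 without Tet2-/- replicate 2. Spans over the 25 enzymes ran from 0.12 to 2.30, with a median of 0.53.

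Among 10 collagen receptors 1 rose, 0 fell and 9 did not pass, where 0.647% of all features rose and 0.305% fell. Itga1 encodes the alpha subunit of a collagen-binding integrin, and was at 5.99, 5.74 and 5.79 in Tet2-/- cultures against 4.91, 4.39 and 4.32 in WT cultures. It rose by 1.30 ± 0.17, or 2.47-fold (limma adjusted p = 0.0152), with an adjusted p = 0.0423 without Tet2-/- replicate 2. Without WT replicate 2 or 3 or Tet2-/- replicate 1 or 3 the call ended (adjusted p up to 0.0773). Its partner subunit Itgb1 spanned 0.19 over all arrays (log2 change 0.13 ± 0.11, adjusted p = 0.613). The inhibitory collagen receptor Lair1 was at 6.76, 5.70 and 5.81 in Tet2-/- cultures against 6.24, 5.73 and 6.16 in WT cultures, and the groups overlapped. The receptor Ddr1 had a log2 change of 0.24 ± 0.17, also with overlapping groups, and Itga2 was above the receptor mark in no array.

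Other fibroblast markers included genes high in Tet2-/- replicate 2 and 1 that differed by genotype. Sparc, a collagen-binding glycoprotein also called osteonectin, was at 5.57, 7.09 and 4.30 in Tet2-/- cultures against 4.19, 5.38 and 4.73 in WT cultures, the order of arrays that Col1a2 and Pdgfra gave. Its log2 change of 0.89 ± 0.58 (limma adjusted p = 0.516) did not pass, and was 0.17 ± 0.41 without Tet2-/- replicate 2. Fbln2, the matrix protein fibulin 2, was likewise highest in Tet2-/- replicate 2, at 5.10, and at 4.47 and 4.10 in the other Tet2-/- cultures against 4.19, 4.31 and 4.39 in WT cultures; its log2 change was 0.26 ± 0.22, and -0.01 ± 0.16 without that array. By contrast Tnc, which encodes the matrix glycoprotein tenascin C, was at 5.67, 5.21 and 5.59 in Tet2-/- cultures against 4.21, 4.27 and 3.43 in WT cultures, and rose by 1.51 ± 0.23 (limma adjusted p = 0.0222), and by 1.65 ± 0.25 without Tet2-/- replicate 2 (adjusted p = 0.0427). Tnc lost its call without WT replicate 3 or Tet2-/- replicate 1 or 3 (adjusted p up to 0.111). Of the 25 measured markers of this list 1 rose, 0 fell and 24 did not pass, where 0.647% of all features rose and 0.305% fell. The highest array was Tet2-/- replicate 2 for 13 of the 25, where it was for 13.8% of all features. The list's mean log2 level was 3.96, 4.21 and 3.85 in Tet2-/- arrays against 3.78, 3.97 and 3.84 in WT arrays. Spans over the 25 ran from 0.25 to 2.90, with a median of 0.50, and 8 of the 25 were above the receptor mark in no array.

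**Figure D5:**
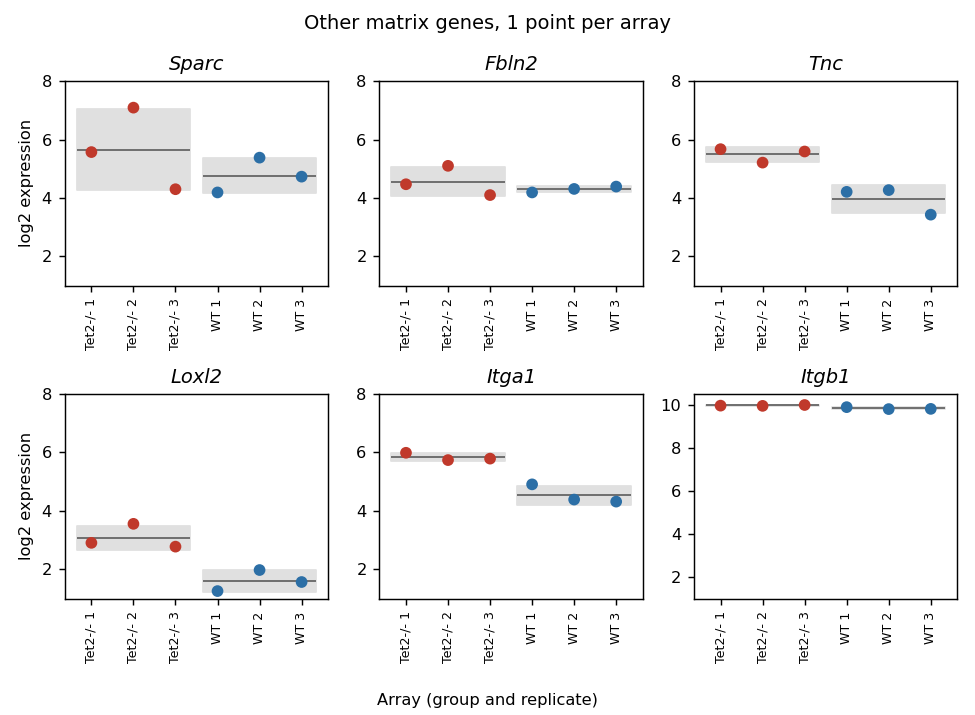
Log2 expression of the matrix genes Sparc, Fbln2, Tnc and Loxl2 and the collagen-binding integrin subunits Itga1 and Itgb1, drawn as 1 point per array (red, Tet2-/-; blue, WT) with the group mean and a grey band of 1 SD (n = 3); the Itgb1 panel has a longer y axis. Sparc and Fbln2 peak in Tet2-/- replicate 2, whereas all Tet2-/- points of Tnc, Loxl2 and Itga1 lie above all WT points.

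Lists for other cells that a peritoneal culture could hold are given as measured. None passed among 17 further mesothelial markers (mean log2 level 3.19 to 3.45 in Tet2-/- arrays and 3.26 to 3.51 in WT arrays) or among 12 endothelial markers (3.45 to 3.50 in Tet2-/- arrays and 3.42 to 3.47 in WT arrays). Over all features 0.952% passed, so a count of 0 in such short lists is close to the background. The widest spans among the 17 were those of the keratin Krt5, at 3.05, 3.73 and 3.65 in Tet2-/- cultures against 3.80, 4.26 and 3.68 in WT cultures, and of Aldh1a2, an enzyme of retinoic acid synthesis, at 4.77, 5.76 and 5.46 against 5.90, 5.34 and 5.08. Muc16, a mucin of mesothelium, was lower in all Tet2-/- arrays than in any WT array but below the receptor mark in all 6. Of 8 genes of B and T cells, 10 of mast cells and eosinophils and 10 of neutrophils, 0 passed, again beside 0.952% of all features. The summed linear level of the neutrophil genes was 265, 531 and 368 in Tet2-/- arrays against 298, 314 and 232 in WT arrays, most of it from S100a8, which was at 7.67, 8.87 and 8.26 against 7.87, 7.96 and 7.38. The mean log2 level of the 10 was 3.17, 3.30 and 3.24 in Tet2-/- arrays against 3.24, 3.26 and 3.22 in WT arrays, and 7 of them were above the receptor mark in no array. Of 6 adipocyte genes 1 fell, where 0.305% of all features did. It was Fabp4, a fatty acid carrier that macrophages also make (log2 change -1.09 ± 0.13, limma adjusted p = 0.0102), while Adipoq, which defines adipocytes, stayed between 1.86 and 2.21. In the macrophage list Cd14 and Itgam rose and 9 of 11 did not pass, where 0.647% of all features rose. The 4 resident macrophage genes that rose were Prg4, F5, Serpinb2 and Timd4. Each of these 7 genes from Fabp4 to Timd4 lost its call in some of the fits that left out 1 array, with adjusted p values up to 0.108. The part of any such cell type in the results above was not tested.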

How the data were processed

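Total RNA of 6 macrophage cultures (3 Tet2-/-, 3 WT) was measured on Affymetrix arrays. The deposited values are log2 expression, made by the authors with RMA in affy 1.36.1, per the submitters' processing notes. The labels state no filter or annotation version. Values ran from 0.35 to 12.72, sorted values differed between arrays by at most 0.27, and they were used as deposited. Because RMA aligns the distributions of the arrays, it hides any shift common to every gene, and it compresses folds of dim features. An array has no read depth, and precision is limited by the number of arrays. On the array 25206 features were present: 23185 had 1 gene symbol, 0 had several and 2021 had none; all 54 symbols matched RefSeq (GRCm38.p6).

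The model for Tet2-/- minus WT used lmFit and eBayes (limma 3.58.1, R 4.3.3; prior degrees of freedom 5.31) on the whole table. Tests were two-sided, p-values were adjusted by Benjamini-Hochberg across the 25206 features, and the threshold was 0.05. On simulated data (25206 features, the real means and spread), 74% of genes changed by 1 and 100% of those changed by 2 (log2) were called in this comparison, and 2.79% of calls were false. The simulated noise was independent between features and arrays and held no outlying array, so these rates may not hold for the real arrays. Summed linear levels add 2 raised to each log2 value. No set test, and no p adjusted over a list alone, was used. Of 218 listed genes in 17 lists, 211 were measured.

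Genes were named by rule: Tet2, the 10 markers, Col1a1, Col1a2, Col3a1, Col4a1, Col4a2, Col5a1, Col5a2 and Col6a1 to Col6a3, any further member past 0.05, with a change of at least 0.5 or a span of at least 1, and in other lists the genes past 0.05 and up to 3 with the widest span. For lists of other cell types outside mesothelium and fibroblasts only genes past 0.05, with S100a8 and Adipoq, were named, a departure from that rule. Adgre1, Lox, Itgb1, S100a8, Adipoq and the collagens named as not overlapping or below the receptor mark were picked with their values in view. Alternatives were centring, cyclic loess, a filter on dim features, a trended robust prior, array weights, the replicate block and leaving out each array; the highest array under other scalings and the medians without Tet2-/- replicate 2 were added after seeing the data. The members and lists were chosen with earlier results of these data known. Same-numbered samples were not treated as pairs, as the labels give them a shared number and state nothing else that they share. Their deviations from the group means correlated at 0.0838, 0.191 and 0.0248 (r, across features), and those of differently numbered samples at -0.137 to 0.0636. With the replicate block in the limma fit, the adjusted p of Bgn was 0.0584, against 0.344 without the block. That of Dcn was 0.0341 against 0.0715, and that of Col1a1 was 0.27 against 0.604. For Col1a2 the values were 0.194 against 0.398, and for Col3a1 0.24 against 0.638.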

Additional observations from a re-analysis of the deposited data

How the results depend on the processing

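The count of 240 features past the threshold was 846 with features above the median level only, 814 with a trended and robust prior, 498 with array weights, 3026 at an adjusted p under 0.25 and 4035 at an unadjusted p under 0.05; leaving out 1 array gave 11 (without Tet2-/- replicate 3) to 155 (without WT replicate 1), with 27, 114, 67 and 25 without Tet2-/- replicates 1 and 2 and WT replicates 2 and 3. The count of 1 gene among the 54 was 2 (Dcn and Pdgfrb) with arrays centred on their medians, with features above the median level only, with a trended and robust prior, with the replicate block, at an adjusted p under 0.25 and at an unadjusted p under 0.05; it was 1 without Tet2-/- replicate 2 and 0 without any other array (range 0 to 1). The replicate block, for which the labels give only a shared number, gave 230 features in all. Of the 3 Tet2-/- samples, 2 correlated best with their own number. The share of higher calls was 163 of 240 as deposited, 215 of 273 with arrays centred on their medians and 174 of 292 with cyclic loess; these scalings moved the median change of all features from -0.04 to 0.03 and 0.00. The number of the 54 genes above the receptor mark, 37, 38 and 35 in Tet2-/- replicates 1, 2 and 3 and 35, 37 and 34 in WT replicates 1, 2 and 3, was 16, 17 and 9, and 7, 11 and 10, at the 99th percentile, and 33 in WT replicate 1 at the array median. The median deviation of the 54 genes was 0.16, 0.12 and 0.14 in Tet2-/- replicate 2 and 0.14, 0.04 and 0.08 in WT replicate 2, as deposited, centred and with loess.

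Signs turned as follows. With arrays centred on their medians or with cyclic loess, Col6a3 was at 0.04 and 0.02 and Lum at 0.03 in both; with array weights Col4a1 was at -0.01 and Lair1 at -0.05. Leaving out 1 array in turn gave Col1a1 -0.06 to 0.99, Col3a1 -0.03 to 0.74, Col4a1 -0.20 to 0.19, Col5a1 -0.02 to 0.23, Col6a2 -0.05 to 0.23, Col6a3 -0.22 to 0.14, Lum -0.11 to 0.05, Krt18 -0.05 to 0.25, Msln -0.02 to 0.25, Upk3b -0.09 to 0.20, Fbln2 -0.01 to 0.49, Fmod -0.07 to 0.32, Loxl1 -0.11 to 0.37, Lair1 -0.28 to 0.24 and Aldh1a2 -0.32 to 0.18. The largest changes to turn were those of Col1a1 (0.59), Col3a1 (0.41) and Fbln2 (0.26), all without Tet2-/- replicate 2. The cause was not tested. Of 13 collagens below the receptor mark in every array, changes may not be detectable.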

Other observations

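Ranked by how far Tet2-/- replicate 2 exceeded the highest of the other 5 arrays, Bgn was at rank 2, Col1a1 at 5, Col1a2 at 6, Pdgfra at 22, Col3a1 at 25 and Dcn at 35 of 25206 features. The first 25 features of this ranking held 5 of the 54 genes, and the first 25 of the same ranking for each of the other 5 arrays held 0. The cut at 25 was not among the planned settings, and Col3a1 lies right at it, so the count of 5 depends on the cut. Other matrix genes near the top, named after their values were seen, were Sparc at rank 3, Timp3, an inhibitor of matrix metalloproteinases, at rank 16, and Aebp1, a collagen-binding protein, at rank 18. Timp3 was at 4.20, 5.16 and 3.05 in Tet2-/- cultures against 2.62, 2.69 and 2.73 in WT cultures, and Aebp1 at 3.94, 5.13 and 3.84 against 4.19, 3.99 and 3.81. C1s1, a complement protease, was at rank 8, with 3.99, 5.20 and 3.93 in Tet2-/- cultures against 3.44, 2.73 and 2.91 in WT cultures, and its inhibitor Serping1 was at rank 24, with 4.76, 5.61 and 4.75 against 4.61, 4.36 and 3.87. These ranks describe 1 culture and carry no test.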
